A study of Mus musculus with 12 samples.

Results

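Of the 55471 genes counted in primary mouse hippocampal cultures, 10 were taken here by symbol as receptors and ligands of neurotrophic signalling: the neurotrophin receptors Ntrk2, Ntrk3 and Ngfr, the neurotrophin Ntf3, the GDNF family receptors Gfra1, Gfra2 and Ret, the CNTF receptor Cntfr, and the receptor Kit with its ligand Kitl. All 10 were found and all 10 were among the 19578 genes tested. The cultures were made from hippocampi of wild-type CD1 mouse embryos of both sexes. They received an antisense gapmer against the long noncoding RNA *Neuid* (*Neuid* KD) or a negative control gapmer at DIV 7 (days in vitro), and RNA was collected at DIV 10, with 6 libraries per group. Both groups were therefore exposed to a gapmer and to its lipid carrier. The labels do not say whether the 6 libraries of a group came from separate cultures, so p-values measure the spread between these libraries, which may be technical.

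Neurotrophins are secreted proteins that bind a Trk receptor tyrosine kinase and also the shared receptor p75, which has no kinase. TrkB (Ntrk2) is the receptor for BDNF, TrkC (Ntrk3) is the receptor for neurotrophin-3 (Ntf3), and p75 (Ngfr) binds all neurotrophins and their uncleaved precursors. GDNF family ligands use another arrangement, in which a GFR alpha protein anchored to the membrane by a lipid (Gfra1, Gfra2) binds the ligand and the kinase Ret carries the signal. The CNTF receptor (Cntfr) is likewise lipid-anchored and works with Lifr and Il6st. Kit is a receptor tyrosine kinase whose ligand, stem cell factor (Kitl), is made as a membrane-bound or a shed protein. In the hippocampus TrkB and TrkC are carried by neurons, and forms of TrkB that lack the kinase are also abundant in astrocytes.

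Control libraries held 18002585 to 30914714 counted reads, and *Neuid* KD libraries held 11152556 to 30573480. The level of *Neuid* itself averaged 8.05 ± 1.13 CPM after its gapmer and 28.4 ± 2.03 CPM after the control gapmer (CPM, counts scaled to library size; SD, n = 6 each), and the groups did not overlap (log2 fold change -1.81, adjusted p = 1.32e-10). Background reads, taken as the sum over 1778 chemosensory receptor genes, ranged from 26.0 to 653 CPM in control and from 26.9 to 604 CPM in *Neuid* KD. The sum was at least 100 CPM in 7 libraries, 4 control and 3 *Neuid* KD. Fold changes within these 7 libraries and within the other 5 are given below for those of the 10 genes that passed, for Kit, and for pathway genes that lost their call there.

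The neurotrophic receptors did not move together in *Neuid* KD cultures. Ntrk2 rose to 131% of its control level and Gfra1 to 116%, whereas Ngfr fell to 56.9% and Kitl to 70.0%. The other 6 genes, Ntrk3, Ntf3, Gfra2, Ret, Cntfr and Kit, did not pass the test (edgeR quasi-likelihood, Benjamini-Hochberg adjusted p under 0.05 over all tested genes). By comparison, 8.72% of all tested genes passed, 6.31% higher and 2.42% lower, and a list of 10 genes is short to read against these shares. With upper-quartile in place of TMM normalization, the split over all tested genes turned from 1235 higher and 473 lower to 1049 higher and 1259 lower, and with GC and length offsets it was 1299 higher and 832 lower. The median log2 fold change was -0.08 for the 10 genes and -0.03 for all tested genes. Ngfr and Kitl, both lower, were the 2 genes of the 10 whose groups did not overlap, against 5.70% of all tested genes without overlap, 4.13% higher and 1.57% lower. The call for Gfra1 was lost in 7 of 11 other settings, whereas Kit, not called here, passed in 9 of 11.

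**Figure D1:**
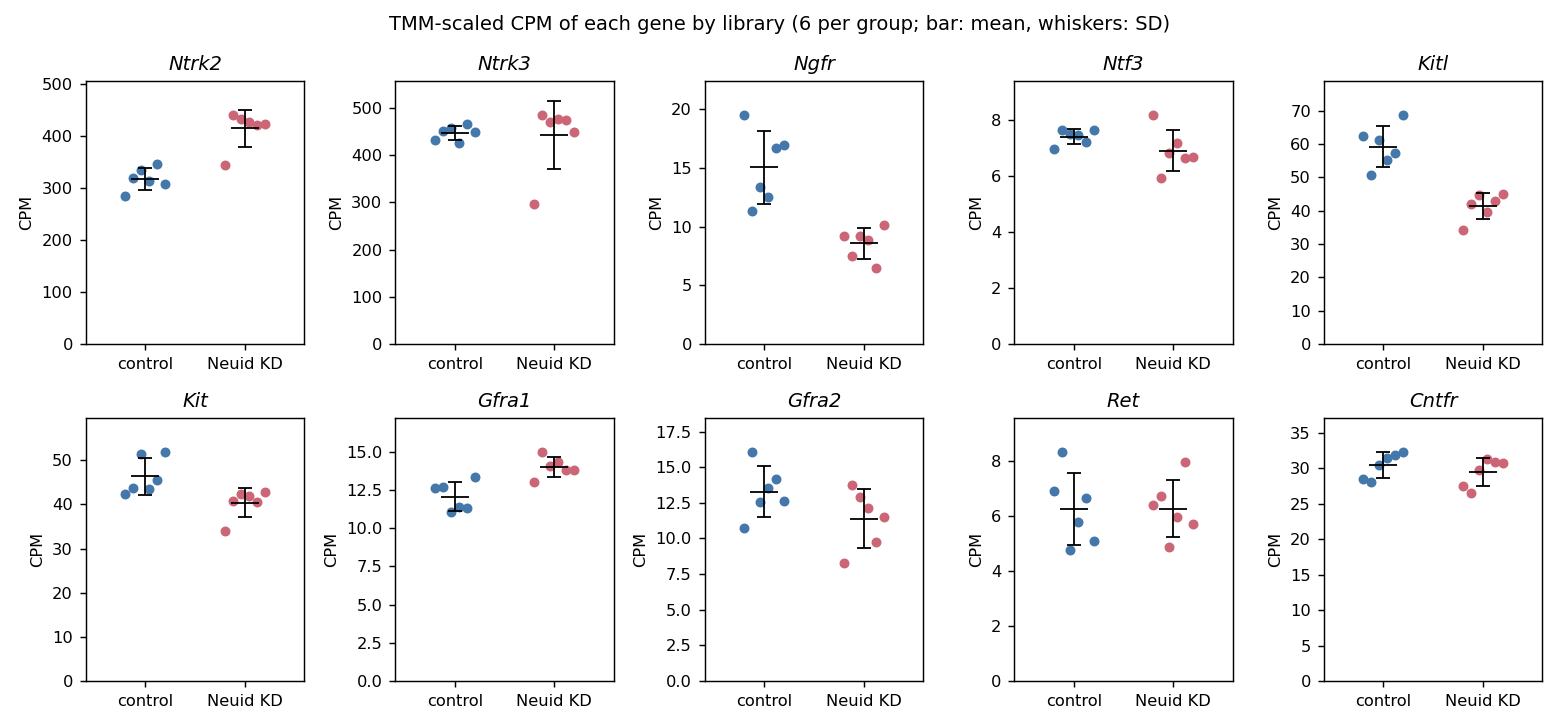
Level of each of the 10 genes in each library, in TMM-scaled CPM on an axis from 0, with control libraries and Neuid KD libraries side by side (points), the mean (bar) and the SD (whiskers), n = 6 per group. The groups are apart for Ngfr and Kitl, 5 of 6 Neuid KD libraries lie above all controls for Ntrk2 and Gfra1, and 1 Neuid KD library lies low for Ntrk2, Ntrk3 and Kit.

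The promoters of Kitl, Ngfr and Ntrk2 are shown as the sequence context of the 3 genes whose changes held under most settings. They were taken from RefSeq on GRCm38.p6, from 250 bases before to 50 bases after the annotated start, 5′ to 3′ on the strand of the gene, and capitals mark each E-box, CANNTG, searched on both strands, which are the same for this palindrome. Kitl lies at chr10:100015571-100015870 on the plus strand, Ngfr at chr11:95587649-95587948 on the minus strand and Ntrk2 at chr13:58806319-58806618 on the plus strand.
Kitl: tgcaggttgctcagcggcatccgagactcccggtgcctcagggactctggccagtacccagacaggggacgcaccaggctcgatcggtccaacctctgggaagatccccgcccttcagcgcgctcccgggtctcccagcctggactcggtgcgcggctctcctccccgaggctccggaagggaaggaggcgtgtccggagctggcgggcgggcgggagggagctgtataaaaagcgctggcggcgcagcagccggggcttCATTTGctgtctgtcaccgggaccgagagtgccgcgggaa
Ngfr: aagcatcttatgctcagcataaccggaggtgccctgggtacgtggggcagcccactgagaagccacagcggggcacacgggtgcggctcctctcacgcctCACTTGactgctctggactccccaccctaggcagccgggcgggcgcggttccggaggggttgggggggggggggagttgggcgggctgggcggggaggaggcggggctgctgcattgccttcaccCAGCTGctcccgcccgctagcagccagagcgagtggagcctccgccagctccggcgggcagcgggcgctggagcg
Ntrk2: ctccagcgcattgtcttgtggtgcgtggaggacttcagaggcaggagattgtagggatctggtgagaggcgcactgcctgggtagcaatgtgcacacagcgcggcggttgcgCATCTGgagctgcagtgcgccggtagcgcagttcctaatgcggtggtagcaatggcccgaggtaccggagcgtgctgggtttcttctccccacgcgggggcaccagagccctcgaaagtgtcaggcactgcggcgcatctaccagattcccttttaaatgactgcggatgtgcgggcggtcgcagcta
The Kitl promoter held 1 E-box, CATTTG, which begins at position 11, the RefSeq start being position 1. The Ngfr promoter held 2, CACTTG at position -150 and CAGCTG at -25 from its RefSeq start, and the Ntrk2 promoter held 1, CATCTG, at -138. An E-box was present in 72.3% of the 32851 RefSeq mouse promoters of the same length, and CAGCTG, which is one form of it, in 16.3%. The GC box GGGCGG, read on both strands, was found 3 times in Kitl, 4 times in Ngfr and 1 time in Ntrk2, and in 35.7% of all promoters at least once. TATAAA was found 1 time, in Kitl, and in 13.6% of all promoters. These promoters were rich in CpG, with 28 CpG in Kitl and 23 each in Ngfr and Ntrk2, against a median of 7 over all promoters. Of the 10 genes, 7 had promoters in the table, 14 entries in all, of which 11 held an E-box and 11 a GC box. Ntrk3, Gfra2 and Ret were not in it. Some entries are overlapping windows of 1 gene, as for Kit (starts at 75574737 and 75574741), so the 14 entries are not separate promoters. For Kitl and Ngfr the RefSeq start (100015821 and 95587698) lies 191 and 37 bases inside the outermost GENCODE gene start. These 2 windows therefore reach into the GENCODE gene by more than the 50 bases after the RefSeq start. For Ntrk2 the 2 annotations give the same start. A match describes the letters in the window and was not tested as a binding site.

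Levels can be set against each other only per length of transcript. Per kilobase of annotated exon, Ntrk2 was the highest of the 10 genes in control libraries at 16.5 ± 1.12 CPM per kb (SD, n = 6), followed by Ntrk3 at 14.8 ± 0.499, Cntfr at 11.0, and Kitl at 10.0 ± 1.05. Kit (5.20), Ngfr (4.37), Ntf3 (4.32), Gfra2 (3.76) and Gfra1 (2.202 CPM per kb) came next, and Ret was the lowest at 0.926 CPM per kb. The ranges over control libraries were apart between Ntrk3 and Cntfr, Kitl and Kit, Gfra2 and Gfra1, and Gfra1 and Ret, and overlapped between all other neighbours in this order. Ntrk2 and Ntrk3, whose ranges overlapped in control, were apart in *Neuid* KD at 21.5 ± 1.83 and 14.6 ± 2.39 CPM per kb. Inside single libraries Ntrk2 was, per kilobase, already the higher in 6 of 6 controls, as in 6 of 6 *Neuid* KD libraries. In *Neuid* KD the ranges of Ntrk3 and Cntfr overlapped, Ntrk3 being the higher in 5 of 6 libraries. By its mean Ngfr moved from the sixth to the ninth place, at 2.49 CPM per kb in *Neuid* KD, close to Gfra1 at 2.56. Both places were near ties. Ngfr was above Ntf3 in only 3 of 6 control libraries, and Gfra1 was above Ngfr in only 3 of 6 *Neuid* KD libraries. All exons of a gene were counted in its length, which is long for genes with many isoforms, such as Ntrk3 with 20 annotated transcripts over 30170 bases of exon and Ntrk2 with 10 over 19292 bases. The order of these 2 genes rests on those lengths. Without division by length, Ntrk3 was above Ntrk2 in every control, at 425.6 to 465 against 284.5 to 346.5 CPM. In *Neuid* KD their undivided ranges overlapped, at 296 to 484 CPM for Ntrk3 and 345 to 440.2 CPM for Ntrk2.

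**Figure D2:**
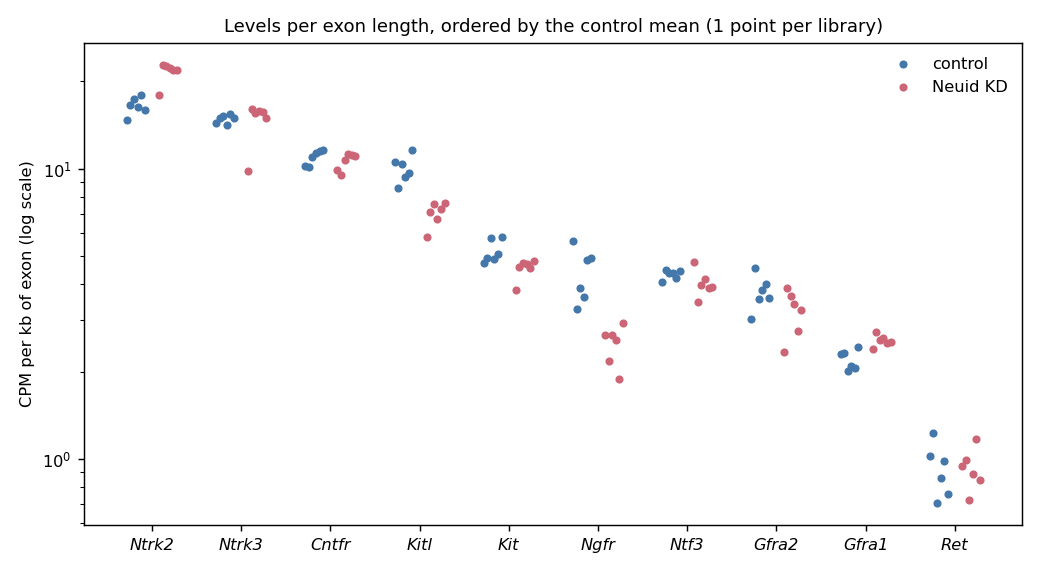
Level of the 10 genes per kilobase of annotated exon, in CPM per kb on a log axis, with 1 point per library (6 control, 6 Neuid KD), ordered by the control mean. By their means Ntrk2 and Ntrk3 lead in both groups, with Ntrk3 and Cntfr overlapping in Neuid KD, and Ret is the lowest, with means of 0.926 CPM per kb in control and 0.927 in Neuid KD.

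Among the ligands, Kitl fell and Ntf3 did not pass the test. Kitl (chromosome 10, 100015630 to 100100416, plus strand, GRCm38) was at 50.7 CPM in the lowest, 59.1 in the median and 68.6 in the highest control library. In *Neuid* KD the lowest was at 34.4, the median at 42.5 and the highest at 44.9 CPM. Every *Neuid* KD library was therefore below every control library. The log2 fold change was -0.51 (SE 0.07, 95% confidence interval -0.67 to -0.35, adjusted p = 0.000148), from 408 to 1832 reads per library. It was -0.52 within the 7 libraries of higher background (adjusted p = 0.000819) and -0.52 within the other 5 (adjusted p = 7.37e-07).

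Ntf3 (chromosome 6, 126101412 to 126166910, minus strand) lay between 6.97 and 7.65 CPM in control (median 7.49) and between 5.94 and 8.17 CPM in *Neuid* KD (median 6.76). The *Neuid* KD range enclosed that of the controls. The log2 fold change was -0.11 (SE 0.08, 95% confidence interval -0.28 to 0.06, adjusted p = 0.580).

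Of the neurotrophin receptors, the kinase receptor Ntrk2 rose, its relative Ntrk3 did not pass the test, and the shared receptor Ngfr fell. Ntrk2 (chromosome 13, 58806569 to 59133970, plus strand) was at 284.5 CPM in the lowest, 317 in the median and 346.5 in the highest control library, and at 345, 426 and 440.2 CPM in *Neuid* KD. All but 1 of the *Neuid* KD libraries were above the highest control, and replicate 1 was just below it. The log2 fold change was 0.39 (SE 0.06, 95% confidence interval 0.25 to 0.52, adjusted p = 0.000450), from 4095 to 12245 reads per library. Within the libraries of higher background it was 0.38 (adjusted p = 0.0209) and within the others 0.32 (adjusted p = 4.22e-08). Without a filter on low counts, when 48419 genes entered the test, Ntrk2 kept its size at 0.39 and no longer passed (adjusted p = 0.0642). The counts are per gene and do not separate the full-length from the kinase-lacking transcripts.

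Ntrk3 (chromosome 7, 78175959 to 78738012, minus strand) was steady among controls, from 425.6 to 465 CPM with a coefficient of variation of 3.37%. In *Neuid* KD it was at 296 CPM in replicate 1 and between 449 and 484 CPM in the other 5 libraries. In 4 *Neuid* KD libraries it was thus above all controls and in 1 far below them. The log2 fold change was -0.02 (SE 0.09, 95% confidence interval -0.21 to 0.18, adjusted p = 0.958), and 0.03 without replicate 1 (adjusted p = 0.590).

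Ngfr (chromosome 11, 95568818 to 95587735, minus strand, a single annotated transcript) was the receptor with the largest fold change of the 10 genes. It was at 11.4 CPM in the lowest, 15.0 in the median and 19.5 in the highest control library. In *Neuid* KD it was at 6.52, 9.03 and 10.1 CPM. The groups did not overlap, although the controls were themselves spread by 20.7% of their mean. The log2 fold change was -0.82 (SE 0.13, 95% confidence interval -1.10 to -0.54, adjusted p = 0.000405). It was -0.81 within the libraries of higher background (adjusted p = 0.000155) and -0.84 within the others (adjusted p = 3.83e-05). Ngfr rested on 109 to 401 reads per library, and at 109 reads counting error alone is 9.58%.

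The GDNF family receptors gave 1 small rise. Gfra1 (chromosome 19, 58235604 to 58455909, minus strand), the receptor that GDNF itself prefers, was at 11.0 to 13.3 CPM in control (median 12.0) and at 13.1 to 15.0 CPM in *Neuid* KD (median 13.9). The groups overlapped by 1 *Neuid* KD library. Its log2 fold change of 0.22 (SE 0.06, 95% confidence interval 0.09 to 0.35, adjusted p = 0.0334) did not pass in 7 of 11 other settings, nor in 10 of 12 fits that each left out 1 library, all but those without control replicate 1 or control replicate 6 (adjusted p from 0.0243 to 0.142 over the 12). It was 0.13 (adjusted p = 0.874) within the libraries of higher background and 0.34 (adjusted p = 0.0595) within the others. An exon of Gfra1 overlaps the antisense gene Gm16277, and how strand was used in counting is not given in the sources used here.

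Gfra2 (chromosome 14, 70890120 to 70979838, plus strand), the receptor for neurturin, was at 10.7 to 16.1 CPM in control (median 13.1) and 8.25 to 13.8 CPM in *Neuid* KD (median 11.8). The groups overlapped over most of their range, and the log2 fold change was -0.21 (SE 0.11, 95% confidence interval -0.45 to 0.03, adjusted p = 0.358). The signalling kinase Ret (chromosome 6, 118151745 to 118197718, minus strand) averaged 6.26 ± 1.31 CPM without and 6.27 ± 1.04 CPM with the knockdown (SD, n = 6 each). Its confidence interval on the log2 scale ran from -0.30 to 0.31, from 76 to 195 reads per library, and changes inside these limits could not be told from 0. The libraries spread by 21.0% of the mean in control and 16.6% in *Neuid* KD, against a counting error of 11.5% at 76 reads.

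Cntfr (chromosome 4, 41657498 to 41697089, minus strand) was at 28.2 to 32.3 CPM in control (median 31.0) and 26.5 to 31.3 CPM in *Neuid* KD (median 30.3). The groups overlapped, and the confidence interval of the log2 fold change was the narrowest of the 10 genes, from -0.17 to 0.07 (adjusted p = 0.786).

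Kit (chromosome 5, 75574916 to 75656722, plus strand), the receptor for Kitl, was at 42.3 CPM in the lowest, 44.6 in the median and 51.9 in the highest control library, and at 33.9, 41.2 and 42.9 CPM in *Neuid* KD. All but 1 of the *Neuid* KD libraries were below all controls. The log2 fold change was -0.20 (SE 0.07, 95% confidence interval -0.34 to -0.06), with an unadjusted p = 0.00882 and an adjusted p = 0.0835. It passed in 9 of 11 other settings and in 2 of the 12 fits that left out a library, those without *Neuid* KD replicate 1 (adjusted p = 0.0305) or replicate 6 (adjusted p = 0.0358). Within the libraries of higher background it was -0.20 (adjusted p = 0.533) and within the others -0.25 (adjusted p = 0.0123).

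**Figure D3:**
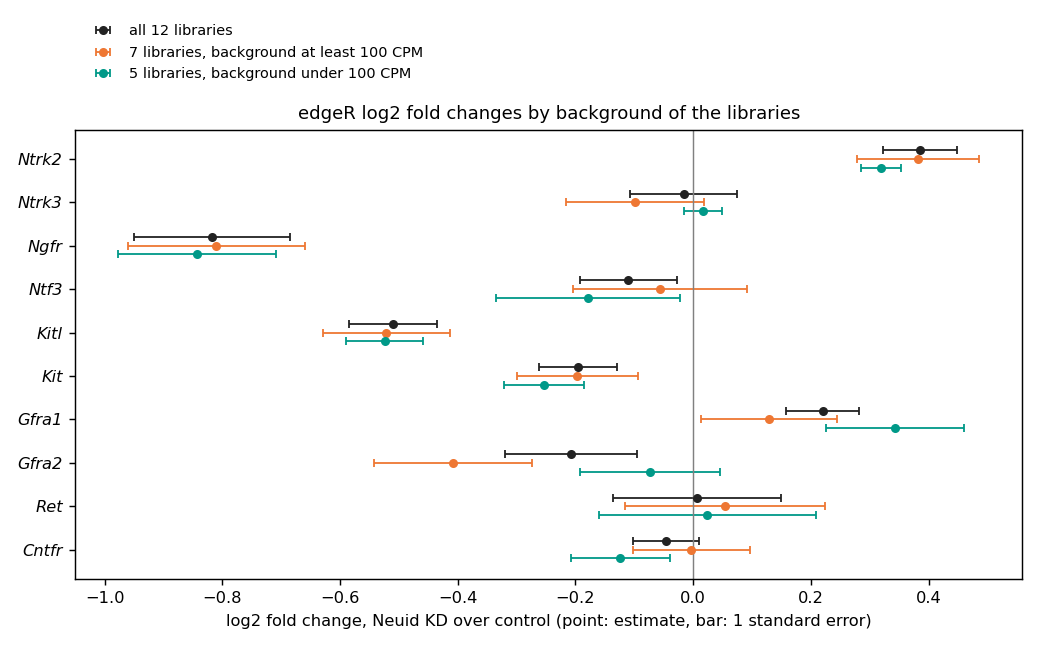
Log2 fold change of each of the 10 genes, Neuid KD over control, with bars of 1 standard error (edgeR), over all 12 libraries (black), the 7 with a background of at least 100 CPM (orange) and the 5 under it (green). The 3 estimates lie close together for Ntrk2, Ngfr, Kitl and Kit and farther apart for Gfra1 and Gfra2.

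Ratios of reads inside a library do not depend on how libraries are scaled to each other. Of 3 ratios chosen after the values had been seen, Ntrk2 to Ntrk3 was 0.712 ± 0.0341 in control (SD, n = 6; range 0.658 to 0.745) and 0.955 ± 0.104 in *Neuid* KD (SD, n = 6; range 0.889 to 1.16). Ntrk2 to Ngfr was 21.99 ± 5.04 in control (SD, n = 6; range 14.6 to 28.1) and 49.7 ± 10.2 in *Neuid* KD (SD, n = 6; range 37.6 to 64.6). Kitl to Kit was 1.28 ± 0.112 in control (SD, n = 6; range 1.16 to 1.48) and 1.03 ± 0.0420 in *Neuid* KD (SD, n = 6; range 0.949 to 1.06). In none of the 3 did the groups overlap, so reads of the ligand exceeded those of its receptor by less in every *Neuid* KD library, and in 1 of them they were fewer. As the ratios were picked for their difference, they are given as a description. The differences in log2 ratio were 0.42, 1.19 and -0.31, and they were 0.51, 1.16 and -0.33 within the libraries of higher background and 0.30, 1.16 and -0.27 within the others.

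**Figure D4:**
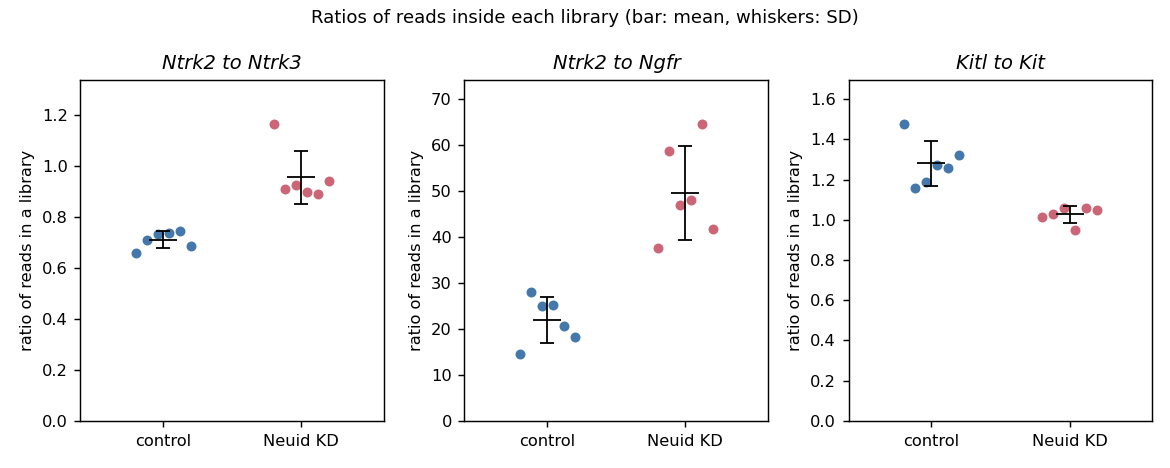
Ratio of reads of one gene to another inside each library, for Ntrk2 to Ntrk3, Ntrk2 to Ngfr and Kitl to Kit (points, libraries; bar, mean; whiskers, SD; n = 6 per group; axes from 0). The groups are apart in all 3 panels, and 1 Neuid KD library reaches 1.16 for Ntrk2 to Ntrk3.

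The other genes of these pathways were counted from 4 lists of 79 genes, 69 of them tested. Of the 69, 11 were higher and 2 lower in *Neuid* KD, with a median log2 fold change of 0.01. Over all tested genes 6.31% were higher and 2.42% lower. The 4 lists were chosen with earlier results of these data known, and each is short to read against these shares. Bdnf, the ligand of TrkB, averaged 80.0 ± 5.94 CPM in controls and 71.6 ± 4.64 CPM after the *Neuid* gapmer (SD, n = 6 each; log2 fold change -0.16, adjusted p = 0.114), and is not in these lists.

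Of 28 genes for neurotrophin co-receptors, precursor processing and adaptors, 4 rose and 1 fell. Sorcs1, a sorting receptor of the sortilin family, rose the most, from 5.97 ± 0.959 to 19.2 ± 2.204 CPM (SD, n = 6 each; log2 fold change 1.68, SE 0.10, adjusted p = 3.82e-09). Its relative Sorcs3 rose from 8.03 ± 0.897 to 10.3 ± 0.918 CPM (log2 fold change 0.36, adjusted p = 0.0114), a call that was lost without *Neuid* KD replicate 6 (adjusted p = 0.0678), within either set of libraries by background (adjusted p = 0.217 and 0.0646), with upper-quartile normalization (adjusted p = 0.0604) and after thinning to the shallowest library (adjusted p = 0.160). Lrig1, a membrane protein that restrains receptor tyrosine kinases, rose from 51.7 ± 4.43 to 83.8 ± 3.46 CPM (log2 fold change 0.70, SE 0.06, adjusted p = 1.59e-07). Gab1, a docking adaptor downstream of such receptors, rose from 24.3 ± 1.53 to 34.5 ± 1.52 CPM (log2 fold change 0.50, SE 0.05, adjusted p = 3.07e-06). Pcsk1, a prohormone convertase of the regulated secretory pathway, fell from 37.7 ± 1.88 to 27.1 ± 2.66 CPM (log2 fold change -0.46, SE 0.06, adjusted p = 5.34e-05). In each of these 5 genes the groups did not overlap. The other 23 did not pass, among them the sortilin gene Sort1, with means of 185 ± 11.7 and 188 ± 11.4 CPM.

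Of 13 further genes of the GDNF family and its adaptors, 9 were tested and 1 passed. Dok5, an adaptor of Ret and Trk receptors, fell from 22.03 ± 1.53 to 17.3 ± 0.893 CPM (SD, n = 6 each; log2 fold change -0.35, adjusted p = 0.000553), without overlap, and did not pass within the libraries of higher background (adjusted p = 0.226). The ligand Gdnf averaged 1.22 CPM in controls and 1.11 CPM after the *Neuid* gapmer (adjusted p = 0.936).

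Of 19 genes around the CNTF and LIF receptors, 14 were tested, 4 rose and none fell. Both signalling partners of Cntfr were among the 4. Lifr rose from 45.4 ± 4.12 to 60.5 ± 4.75 CPM (SD, n = 6 each; log2 fold change 0.42, adjusted p = 0.000351). Il6st, the shared gp130 chain, rose from 49.3 ± 2.96 to 60.2 ± 4.15 CPM (log2 fold change 0.29, adjusted p = 0.00206), and did not pass within the libraries of higher background (adjusted p = 0.199) or without a filter on low counts (adjusted p = 0.0588). Osmr, the oncostatin M receptor chain, rose from 2.53 ± 1.10 to 5.87 ± 1.02 CPM (log2 fold change 1.22, adjusted p = 0.00193). The groups did not overlap for any of these 3. Il11ra1, which binds interleukin-11, was at 1.05 ± 0.394 and 2.07 ± 0.333 CPM with overlapping groups (log2 fold change 0.97, adjusted p = 0.0433), and this call was lost within the libraries of higher background (log2 fold change 0.78, adjusted p = 0.529), with upper-quartile normalization (adjusted p = 0.0532), with a replicate block (adjusted p = 0.0537), without a filter on low counts (adjusted p = 0.263) and in 10 of 12 fits that left out a library.

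Of 19 genes around Kit, 18 were tested, 3 rose and none fell. Csf1, the ligand of the related receptor Csf1r, rose from 6.84 ± 0.785 to 9.82 ± 0.580 CPM (SD, n = 6 each; log2 fold change 0.52, adjusted p = 0.000294), without overlap. It was not past the threshold within the libraries of higher background (adjusted p = 0.113). The Src family kinases Fyn and Lyn rose by 0.31 (from 215.5 ± 15.4 to 267 ± 15.4 CPM, adjusted p = 0.00137) and by 0.38 (from 7.50 ± 0.994 to 9.80 ± 1.14 CPM, adjusted p = 0.0229) on the log2 scale. Fyn missed the threshold within the libraries of higher background (adjusted p = 0.0511) and without a filter on low counts (adjusted p = 0.159). For Lyn the groups overlapped and the call was lost within either set of libraries by background (adjusted p = 0.169 and 0.0586), with upper-quartile normalization (adjusted p = 0.0869), after thinning to the shallowest library (adjusted p = 0.187) and in 4 of the 12 fits that left out a library.

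**Figure D5:**
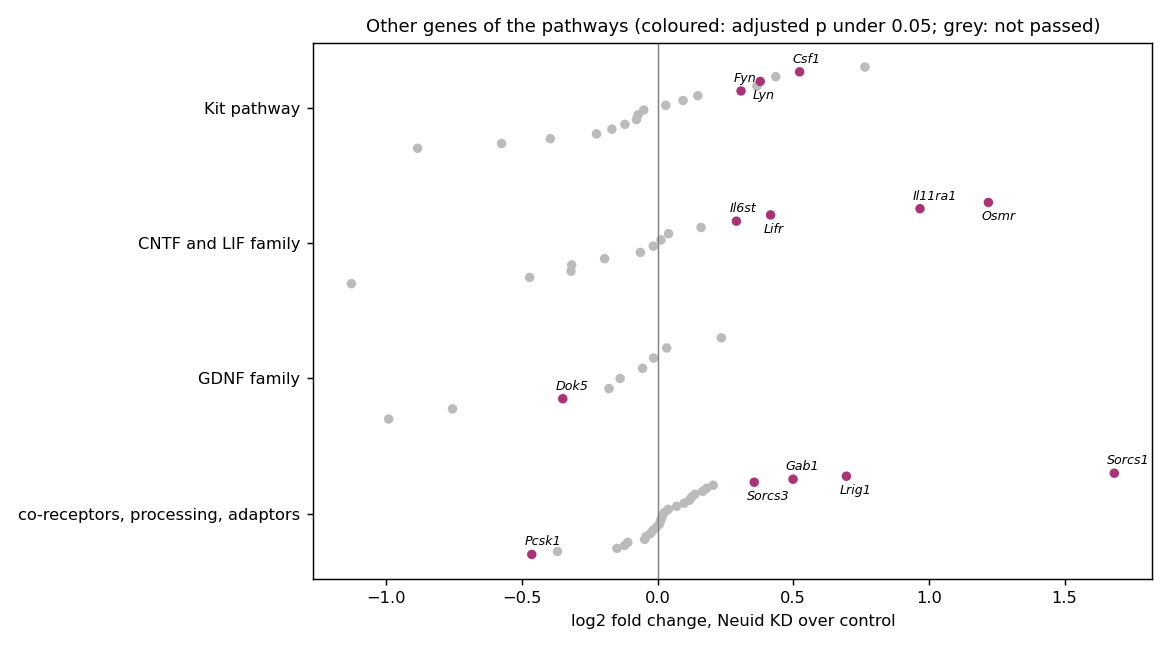
Log2 fold change, Neuid KD over control, of the 69 tested pathway genes outside the 10, by list (n = 6 libraries per group). The 13 genes that passed at adjusted p under 0.05 are coloured and named, 11 above 0 and 2 below it, and Sorcs1 lies farthest to the right at 1.68.

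Several of these genes are also made by cells other than neurons, and fewer cells of a type and less RNA per cell cannot be told apart in bulk RNA. Neuronal markers were high in all libraries, the 8 pan-neuronal genes summing to 5803 to 6805 CPM in control and 5721 to 6804 CPM in *Neuid* KD, with none of the 8 past the test. Of the astrocyte markers 10 of 10 rose, their sum lying between 1687 and 2126 CPM in control and between 3073 and 3736 CPM in *Neuid* KD (exact two-sided permutation test, p = 0.00216, the smallest that these numbers of libraries allow). Of 8 markers of oligodendrocyte precursors 3 rose, namely Olig1, Olig2 and, just under the threshold, Lhfpl3 (adjusted p = 0.0499). The others, among them Pdgfra, Cspg4 and Sox10, did not pass. The sum lay between 104 and 123 CPM in control and between 255 and 301 CPM in *Neuid* KD. Most of its rise came from Olig1 (means 78.2 and 216 CPM) and Olig2 (10.5 and 33.6 CPM). Of 5 neural progenitor markers 4 rose and 1, Vim, fell, and the sum was lower, 644.0 to 726 against 511 to 559 CPM. Whether these cells had a part in the changes of Ntrk2, Lifr, Il6st, Osmr, Gab1 or Lrig1 was not tested.

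Few markers of other cell types that could carry Ngfr, Kit or Kitl passed the test. Several had low counts, and not passing does not show that a level was unchanged. Of Schwann and neural crest markers, which bear on Ngfr, none of 3 tested passed (median log2 fold change -0.07). Their sums were 9.21 to 13.3 CPM in control and 7.80 to 11.8 CPM in *Neuid* KD. None of 8 fibroblast and mural markers passed either (39.7 to 71.0 and 37.4 to 60.0 CPM), with a median log2 fold change of -0.44. For mast cells, which express Kit, 5 markers together summed to at most 1.30 CPM in any control and 0.589 CPM in any *Neuid* KD library, and none had enough reads to be tested. None of 8 inhibitory neuron markers passed, with sums of 188.5 to 221 CPM and 176 to 205.5 CPM (exact two-sided permutation test, p = 0.433). With upper-quartile scaling the difference of the sum was -14.2 CPM (p = 0.0260 by the same exact test, not adjusted for the number of marker lists). No marker of Cajal-Retzius cells, microglia or endothelium passed, with median log2 fold changes of -0.20, -0.31 and -0.30. Of 4 tested markers of myelinating oligodendrocytes 1 fell, and among 6 excitatory neuron markers 1 rose and 1 fell. The sum of these 6 was nonetheless higher in every *Neuid* KD library, at 1516 to 1815 CPM in control and 1832 to 2023 CPM in *Neuid* KD (exact two-sided permutation test, p = 0.00216, the smallest possible), also with upper-quartile scaling. Its part in the changes of Ntrk2 and the other genes was not tested.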

How the data were processed

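Total RNA libraries were prepared with a stranded low-input kit and sequenced as single reads of 50 bases. Per the labels and methods, the authors demultiplexed with bcl2fastq, aligned to mm10 (GRCm38) with STAR, and deposited raw counts of reads per Ensembl gene, without normalization; the strand setting and annotation release of the counting are not given in the sources used here. Symbols and positions came from GENCODE on GRCm38 for 55144 of 55471 genes. Counts were normalized by TMM and tested with edgeR 4.0.16 (filterByExpr, glmQLFit, glmQLFTest; R 4.3.3), control against *Neuid* KD, 6 libraries each, with Benjamini-Hochberg adjustment over 19578 genes. No library pair of a group agreed within counting noise. Standard errors were the fold change divided by the root of F. Alternatives, among them DESeq2 1.42.0, are given at the end. Named were all 10 genes, *Neuid* and, of the pathway lists, every gene that passed, plus Bdnf, Gdnf and Sort1, which did not. Some other neurotrophin pathway genes are not reported here. The genes and lists were chosen with earlier results of these data known. On simulated counts for this comparison (18178 genes), the test recovered 99% of 100 genes changed by 1 and 92% of 100 changed by 0.5 on the log2 scale, and called 0.067% of unchanged genes.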

Additional observations from a re-analysis of the deposited data

Results flagged for a closer look

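In 3 of the 22 groups of 6 libraries checked, 1 library stood apart from the other 5 by more than Dixon's 95% limit of 0.625 of the range, where chance gives about 1 in 20 groups. All 3 were *Neuid* KD replicate 1: Ntrk2 at 344.8 CPM against 421 to 440.2 in the others (gap 0.802 of the range), Ntrk3 at 296.3 CPM against 449 to 484 (0.816), and Kit at 33.93 CPM against 40.6 to 42.9 (0.748). This library was the shallowest, with 11152556 reads, and had a background of 604 CPM. Its Ntrk2 to Ntrk3 ratio, 1.16, was the highest of the 12. Without it the log2 fold change was 0.39 for Ntrk2 (adjusted p = 1.18e-05), 0.03 for Ntrk3 (adjusted p = 0.590) and -0.20 for Kit (adjusted p = 0.0305), so that Kit then passed, and Gfra1 no longer did (0.20, adjusted p = 0.0664). The part of depth or background in these values was not tested.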

How the results depend on the processing

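Ngfr and Kitl kept their direction and call in all 11 other settings and all 12 fits without 1 library (log2 fold change -0.90 to -0.73 for Ngfr and -0.57 to -0.48 for Kitl), and Ntrk2 in all but the fit with no filter on low counts, where 0 of the 10 genes were higher. Of the 10 genes, 1 was higher with upper-quartile normalization, a replicate block, at least 100 CPM background, under 100 CPM background, GC and length offsets or thinning to the shallowest library, 0 when an absolute log2 fold change above 0.5 was also asked, and 1 to 2 without 1 library. The number lower was 2 or 3 in each of the 12 settings this count was made under and 2 to 3 without 1 library, Kit being the gene added. Over all genes, against 1235 higher, there were 711 without a filter, 651 with at least 100 CPM background, 477 above 0.5, and 822 (without *Neuid* KD replicate 2) to 1208 without 1 library. More genes were higher with a background covariate (1775), 1 RUVs factor (1738) or DESeq2 (1487). Against 473 lower, there were 1259 with upper-quartile normalization, 1000 with DESeq2, 981 with 1 RUVs factor, 229 without a filter, 987 with a background covariate, 205 and 799 with at least and under 100 CPM background, 832 with GC and length offsets, 155 above 0.5, and 355 to 780 (without *Neuid* KD replicate 1) without 1 library. Ntrk3, at -0.02, was at 0.0171 under 100 CPM background and at -0.0702 to 0.0348 without 1 library. Ret, at 0.0060, was at -0.0126 with RLE, -0.0567 with upper-quartile normalization, -0.0118 with DESeq2, -0.0227 with GC and length offsets, -0.0383 thinned, and -0.11 to 0.10 without 1 library. The summed pan-neuronal level differed by -225 CPM with upper-quartile normalization, against 39 CPM with TMM, and that of inhibitory neuron markers by -14.2 CPM (unadjusted exact permutation p = 0.0260) against -6.3 CPM. These causes were not tested. Replicate numbers did not pair the libraries (correlation over 0.1 in 2 of 6 pairs, best with the own number in 2 of 6), and a replicate block gave 1299 genes higher and 542 lower, with 1 of the 10 genes higher and 3 lower. The median log2 fold change of all genes was -0.03, -0.09 with upper-quartile normalization and -0.14 without a filter. Counting error at the lowest read number was 11.5% for Ret, 10.2% for Ntf3 and 10.1% for Gfra2, against a spread of control libraries of 21.0%, 3.58% and 13.5%.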
